A study of Mus musculus with 3 samples.

Results

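The cells described here are Izumo1r-rich wild-type TEa CD4+ T cells of the spleen, which carried the working name of follicular helper T (Tfh)-like cells. They were 3557 of the 6556 spleen cells that passed the quality filter (54.3%, exact binomial 95% interval 53.0 to 55.5), and the 3 libraries of the series together held 23450 barcodes with at least 1000 UMIs and 500 genes. A UMI is a molecular tag that counts 1 captured transcript. A cell was a member when its UMIs of Izumo1r, Cd200 and Cxcr5 summed to at least 3 and it had no UMI of Ccl5, a chemokine of effector T cells. The comparison cells were the 931 spleen cells of the same filter with no UMI of the 3 genes. Because measured values chose both groups, every difference below is a description, with no test.

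TEa cells are T cells with 1 transgenic receptor against a peptide of the BALB/c I-E alpha chain shown by the B6 class II molecule. Naive TEa cells, wild-type or Ldha-/-, were moved into C57BL/6 (B6) mice that then received BALB/c hearts, and the cells were sorted 7 days after transplantation. The Izumo1r-rich cells and their comparison cells came from the same library, wild-type TEa cells sorted from spleen. The other wild-type library came from the grafted heart, and a library of Ldha-/- TEa cells from spleens; the Ldha-/- library was not analysed here by gene. Each group was 1 library, the sources used here do not state how many mice stood behind each, and tissue cannot be told apart from library. All recipients were transplanted, and no ungrafted control was analysed here.

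Tfh cells are CD4+ T cells that enter B cell follicles and help B cells to form germinal centres. CXCR5 guides them to the follicle, BCL6 represses competing programmes and BLIMP-1 (Prdm1) opposes it, and IL-21, IL-4 and CD40 ligand carry the help. Izumo1r encodes folate receptor 4, which is also found on anergic and regulatory CD4+ T cells, and Cd200 encodes an inhibitory surface ligand. In transplantation, Tfh cells are known for their part in antibody responses against the graft.

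The promoters of 3 of the 5 marker genes are shown because the rule turns on Izumo1r and Cd200 and the results return to Id3, and because Izumo1r was found with Cd200 and with Id3 in more cells than independence would give. Each is 300 bases, 5′ to 3′ on the gene's strand, mostly before and partly after the RefSeq start in GRCm38.p6. Izumo1r lies at chr9:14903718-14904017 on the minus strand, Cd200 at chr16:45409004-45409303 on the minus strand and Id3 at chr4:136143572-136143871 on the plus strand. Capitals mark matches, on either strand, to CAGNTG, a motif of the E proteins that Id3 inhibits. The motif CTTTGAT of TCF-1 (Tcf7) and LEF1 was searched as well.
Izumo1r: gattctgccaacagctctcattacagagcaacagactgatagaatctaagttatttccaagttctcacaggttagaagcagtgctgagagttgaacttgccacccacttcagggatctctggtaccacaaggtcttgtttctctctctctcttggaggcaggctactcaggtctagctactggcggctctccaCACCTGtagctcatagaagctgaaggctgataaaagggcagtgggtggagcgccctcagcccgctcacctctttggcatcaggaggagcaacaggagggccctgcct
Cd200: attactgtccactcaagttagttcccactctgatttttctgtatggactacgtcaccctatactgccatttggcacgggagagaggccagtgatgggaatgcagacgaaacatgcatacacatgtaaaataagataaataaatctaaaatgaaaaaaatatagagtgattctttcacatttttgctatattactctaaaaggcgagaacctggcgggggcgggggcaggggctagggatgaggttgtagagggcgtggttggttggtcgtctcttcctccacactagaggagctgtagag
Id3: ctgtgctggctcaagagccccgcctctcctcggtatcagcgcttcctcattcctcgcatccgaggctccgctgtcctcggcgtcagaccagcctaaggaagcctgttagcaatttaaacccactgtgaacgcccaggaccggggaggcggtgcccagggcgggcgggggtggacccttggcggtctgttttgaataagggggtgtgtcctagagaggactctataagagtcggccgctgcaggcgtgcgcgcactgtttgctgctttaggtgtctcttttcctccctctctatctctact
The Izumo1r promoter held 1 match to CAGNTG, and the other two held none. Of all 32851 RefSeq promoters of this length, 51.4% held CAGNTG and 3.73% held CTTTGAT. None of the 3 held CTTTGAT, and a match in these windows is a description of the letters only. The other markers by name were Cxcr5 and Tox.

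Izumo1r chose most of these cells. It gave 22791 UMIs, which were 84.6% of the UMIs the rule counted, and 99.4% of the members had at least 1 of them (lowest 0, median 5, highest 32 UMIs per cell). Cd200 gave 9.75% of the rule's UMIs and was found in 44.0% of the members. Cxcr5, the receptor that defines Tfh cells, gave 5.65% and was found in 30.9% (29.4 to 32.4), with 3 or more UMIs in 2.42%. Cxcr5 was also found in 2 of 24 spleen barcodes that failed the T cell criterion (8.33%, 1.03 to 27.0, at a median of 7672.5 UMIs). The cell type of these barcodes was not tested, so they set no background for Cxcr5. In the members Cxcr5 stood at 48.9 counts per 1000000 UMIs (CPM), against 25.3 CPM in near-empty barcodes. Near-empty barcodes are those with at most 100 UMIs, which hold mainly free RNA. The working name therefore rests on Izumo1r in most cells and on Cxcr5 in a minority, so the cells are called Izumo1r-rich here. The rule's sum ranged from 3 to 36 UMIs per cell, with a median of 6. Just inside the threshold stood 566 cells with a sum of 3, and just outside it 698 Ccl5-negative cells with a sum of 2, with median depths of 7767.5 and 7726.5 UMIs.

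Depth, free RNA and other cell types bear on what the rule picks. The Izumo1r-rich cells had a median of 8164 UMIs and 2198 genes, against 7472 UMIs and 2134 genes in the comparison cells, and 36.3% against 32.9% of UMIs came from ribosomal protein genes. When each cell was thinned at random to 3000 UMIs, 45.2% of the Izumo1r-rich cells still passed the rule. Izumo1r stood at 732 CPM in the Izumo1r-rich cells and 456 CPM in the near-empty barcodes. In 24 spleen barcodes with fewer than 6 T cell receptor and CD3 UMIs, Izumo1r was found in 1 (4.17%, 0.105 to 21.1) at a median of 7672.5 UMIs. The main comparison was also run with reweighted or thinned depth, with values in the closing section. Near-empty spleen barcodes held a mean of 3.44 UMIs, and the part of free RNA in the results was not tested.

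The sorted cells carried the marks of TEa CD4+ T cells in both groups. Cd4 stood at 223 CPM in the Izumo1r-rich cells and 175 CPM in the comparison cells. Of the UMIs of beta chain variable segments, 78.7% (76.1 to 81.2) were Trbv19, the segment of the TEa receptor, in the Izumo1r-rich cells and 82.6% (76.9 to 87.5) in the comparison cells. Of the UMIs of alpha chain variable segments, 58.2% (56.4 to 60.04) were of the Trav14 family in the Izumo1r-rich cells and 65.9% (62.1 to 69.5) in the comparison cells. These segment intervals treat each UMI as independent, though a cell can give several, so they may be too narrow to compare the groups. The defining B cell genes Ms4a1 and Cd79a stood at or under 0.2 CPM, and Ighm gave most of the summed B cell level, 181 CPM in the Izumo1r-rich cells and 223 CPM in the comparison cells. Monocyte genes summed to 200 CPM in Izumo1r-rich cells against 216 CPM in comparison cells, CD8 T cell genes to 5.52 CPM in Izumo1r-rich cells against 4.66 CPM in comparison cells, NK cell genes to 5.23 CPM in Izumo1r-rich cells against 4.11 CPM in comparison cells and neutrophil genes to 0.10 CPM in Izumo1r-rich cells against 1.23 CPM in comparison cells. Haemoglobin genes summed to 501 CPM in the Izumo1r-rich cells and 3.43 CPM in the comparison cells, and 2 barcodes held 15432 of the 15552 haemoglobin UMIs. The spleen and heart libraries of wild-type cells shared 6 barcodes, 1 of them a member.

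Levels below are UMIs summed over the cells of a group, in CPM, with exact Poisson 95% intervals that cover counting error only. The log2 ratio is that of (CPM + 1) in Izumo1r-rich cells over comparison cells, and a gene was counted as measured at 10 CPM or more in either group. Of 6782 measured genes, 166 were higher by 1.5-fold or more (2.45%) and 364 lower by as much (5.37%), and the median log2 ratio was -0.04. At 2-fold, 57 (0.84%) were higher and 160 (2.36%) lower, and 43.5% of the genes had a ratio above 0. Of 33 genes of the Tfh programme, the joined lists of its transcription factors, surface molecules and cytokines without the rule's genes, 23 were measured. By 1.5-fold, 12 of the 23 were higher and 0 lower, 21 had a ratio above 0, and the median log2 ratio was 0.63. Id3 and Tox, which were given as markers of these cells, are among them. Against the 641 comparison cells without Ccl5 the median was 0.44, with 10 genes higher and 0 lower. In that setting 146 of 6731 measured genes were higher and 211 lower by 1.5-fold. The shares over all measured genes are the background for the list counts below.

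Several transcription factors of the programme were higher. Of 10 measured, 7 were at least 1.5-fold higher, with a median log2 ratio of 0.92. Against comparison cells without Ccl5, 5 of the 10 were, with a median of 0.81; Tcf7 (0.38) and Bach2 (0.53) no longer reached 1.5-fold. Bcl6, the repressor that defines Tfh cells, reached 14.6 CPM (13.3 to 16.0) in the Izumo1r-rich cells, against 3.43 CPM (2.22 to 5.06) in the comparison cells, a log2 ratio of 1.82. The intervals did not overlap, but the level was low. Bcl6 had a UMI in 10.4% of the Izumo1r-rich cells and 2.36% of the comparison cells. It also had a UMI in 3 of the 24 non-T barcodes (12.5%, 2.66 to 32.4). Their cell type was not tested and the interval is wide, so they set no background share for Bcl6. Tox2 reached 27.1 CPM (25.3 to 29.0) in Izumo1r-rich cells against 7.68 CPM (5.80 to 9.97) in comparison cells, and Tox, its relative, 83.8 CPM (80.7 to 87.1) in Izumo1r-rich cells against 33.2 CPM (29.1 to 37.6) in comparison cells. Both encode HMG-box factors of Tfh and chronically stimulated T cells. Nfatc1, a calcium-driven factor, stood at 126 CPM in Izumo1r-rich cells against 59.9 CPM in comparison cells, Bach2, a repressor of effector genes, at 30.3 CPM in Izumo1r-rich cells against 17.3 CPM in comparison cells, and Tcf7 at 499 CPM in Izumo1r-rich cells against 322 CPM in comparison cells. Maf, which drives Il4 and Il21, went the other way, with 135 CPM (131 to 140) in the Izumo1r-rich cells and 180 CPM (171 to 190) in the comparison cells, a log2 ratio of -0.41 that came to -0.07 against comparison cells without Ccl5. Ascl2, an early driver of Cxcr5, had 6 UMIs in the Izumo1r-rich cells and 0 in the comparison cells, which allows up to 0.411 CPM.

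Id3, an inhibitor of E proteins that is kept high in Tfh cells, was among the higher transcription regulators of the list. It reached 522 CPM (514 to 530) in the Izumo1r-rich cells, against 170 CPM (161 to 180) in the comparison cells, a log2 ratio of 1.61. After thinning to 3000 UMIs, Id3 was found in 63.3% of the Izumo1r-rich cells and 28.4% of the comparison cells; unthinned, the shares were 82.3% of the Izumo1r-rich cells, 42.9% of the comparison cells and 8.33% of the non-T barcodes. The thinned count per cell ran from 0 to 29 UMIs with a median of 1 in the Izumo1r-rich cells, and from 0 to 11 with a median of 0 in the comparison cells, so the groups overlapped widely. Id2, the related inhibitor of Th1 and effector cells, stood at 127 CPM (123 to 131) in Izumo1r-rich cells against 340 CPM (327 to 354) in comparison cells, a log2 ratio of -1.42. The E protein genes Tcf3 and Tcf12 had log2 ratios of -0.40 and 0.05.

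Most surface and signalling genes of the programme were higher by smaller amounts. Of 12 measured, 4 were at least 1.5-fold higher and 0 lower, with a median log2 ratio of 0.41. Against comparison cells without Ccl5, 4 were higher and 0 lower, with a median of 0.30. Pdcd1, which encodes the inhibitory receptor PD-1, reached 44.3 CPM (42.0 to 46.7) in the Izumo1r-rich cells, against 21.0 CPM (17.8 to 24.6) in the comparison cells. Il6st, the signalling chain of the IL-6 receptor, reached 99.0 CPM (95.5 to 103) in Izumo1r-rich cells against 42.2 CPM (37.6 to 47.2) in comparison cells, while Il6ra, the binding chain, stood at 84.1 CPM in Izumo1r-rich cells against 63.9 CPM in comparison cells. Comparison cells without Ccl5 had Il6ra at 80.0 CPM, near the level of the Izumo1r-rich cells. Tnfsf8, the CD30 ligand, and P2rx7, an ATP receptor that limits Tfh cells in gut tissue, were the other genes past 1.5-fold, at 105 CPM in Izumo1r-rich cells against 53.0 CPM in comparison cells and 51.0 CPM in Izumo1r-rich cells against 29.1 CPM in comparison cells. Icos, the costimulator needed for Tfh cells, stood at 171 CPM (166 to 176) in Izumo1r-rich cells against 131 CPM (123 to 140) in comparison cells, Btla at 54.9 CPM in Izumo1r-rich cells against 36.5 CPM in comparison cells and Slamf6 at 472 CPM in Izumo1r-rich cells against 353 CPM in comparison cells. Sh2d1a, the SLAM adaptor SAP, and Cd40lg differed little, with log2 ratios of 0.11 and -0.02. The Poisson intervals of Cd40lg overlapped, 44.7 to 49.5 CPM in the Izumo1r-rich cells and 43.0 to 53.1 CPM in the comparison cells.

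Cytokine transcripts were scarce. Il21, the main helper cytokine of Tfh cells, reached 9.86 CPM (8.79 to 11.0) in the Izumo1r-rich cells, against 1.64 CPM (0.85 to 2.87) in the comparison cells, and had a UMI in 4.84% of the Izumo1r-rich cells, 0.967% of the comparison cells and 0 of the 24 non-T barcodes. Il4 had 105 UMIs (3.37 CPM, 2.76 to 4.08) in the Izumo1r-rich cells and 1 UMI in the comparison cells. Sostdc1, a secreted WNT and BMP antagonist of a Tfh subset, had 101 UMIs in the Izumo1r-rich cells and 0 in the comparison cells, at least 7.89-fold higher against a floor of 3 UMIs over the comparison group. Angptl2, a secreted angiopoietin-like protein, was the only cytokine-list gene past the 10 CPM floor, at 15.8 CPM in Izumo1r-rich cells against 3.29 CPM in comparison cells.

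**Figure D1:**
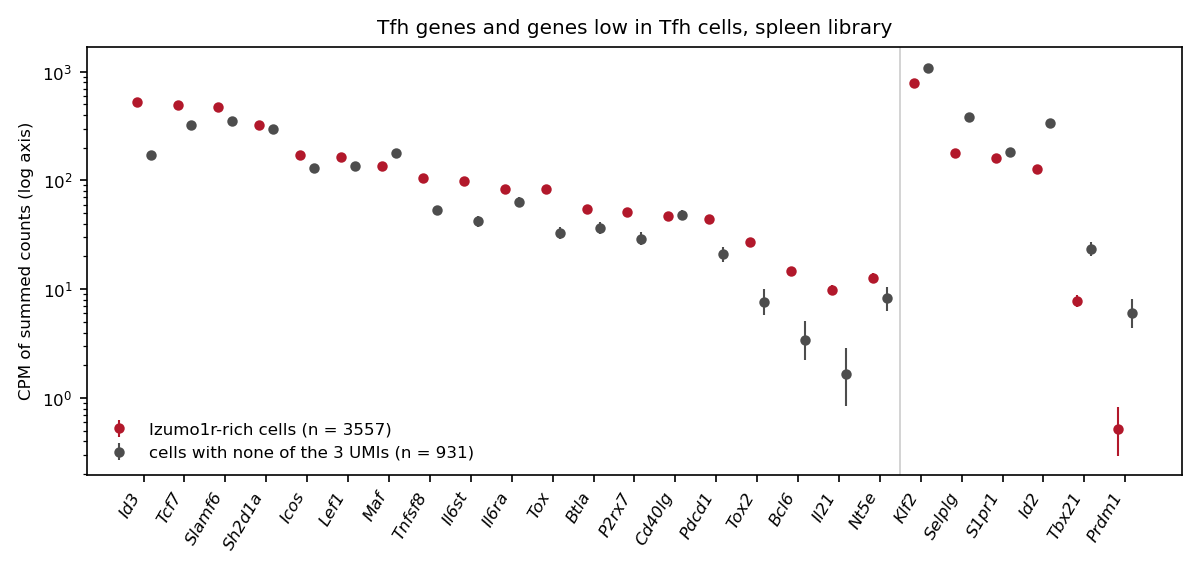
Levels of genes of the Tfh programme in CPM on a log axis, with the Izumo1r-rich cells and the comparison cells of the same spleen library and exact Poisson 95% intervals, which cover counting error only. Bcl6 was at 14.6 CPM in Izumo1r-rich cells against 3.43 CPM in comparison cells and Id3 at 522 CPM in Izumo1r-rich cells against 170 CPM in comparison cells, with intervals apart, while those of Cd40lg (47.1 CPM in Izumo1r-rich cells against 47.8 CPM in comparison cells) overlapped.

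Some genes that oppose the programme and some homing genes were lower. Of 7 measured opponents, 3 (Id2, Tbx21 and Runx3) were at least 1.5-fold lower and 0 higher, with a median log2 ratio of -0.47. Prdm1, under the 10 CPM floor, had 16 UMIs (0.514 CPM, 0.294 to 0.834) in the Izumo1r-rich cells and 44 UMIs (6.03 CPM, 4.38 to 8.10) in the comparison cells. Tbx21, the Th1 factor T-bet, stood at 7.74 CPM (6.79 to 8.78) in Izumo1r-rich cells against 23.6 CPM (20.2 to 27.4) in comparison cells. Klf2, which drives egress from lymphoid organs and restrains Tfh cells, stood at 789 CPM (779 to 799) in Izumo1r-rich cells against 1092 CPM (1068 to 1116) in comparison cells, a log2 ratio of -0.47 that did not reach 1.5-fold. Of 14 measured homing and egress genes, 8 were at least 1.5-fold lower and 0 higher, against 5.37% lower of all measured genes. Against comparison cells without Ccl5, 6 were lower, and 7 were with totals that leave out mitochondrial, ribosomal protein and Malat1 counts. Selplg, the P-selectin ligand PSGL-1, stood at 180 CPM (175 to 184) in Izumo1r-rich cells against 386 CPM (372 to 400) in comparison cells, Itgb1, an integrin chain, at 373 CPM in Izumo1r-rich cells against 674 CPM in comparison cells, and Cxcr3, a receptor for inflamed tissue, at 154 CPM in Izumo1r-rich cells against 264 CPM in comparison cells. Ccr7, the receptor for the T zone, had a log2 ratio of 0.44, and S1pr1, the egress receptor, -0.17. Comparison cells without Ccl5 had Ccr7 at 115 CPM, near the 118 CPM of the Izumo1r-rich cells. S1pr4, another receptor for sphingosine-1-phosphate, stood at 106 CPM in Izumo1r-rich cells against 192 CPM in comparison cells.

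Outside the rule's genes, Ramp1 and Ephx1 led the genes that were higher. Among genes at 50 CPM or more in either group, the 15 highest ratios belonged to Ramp1, Ephx1, Rnf19a, Id3, Rgs10, Tbc1d4, Tox, Egr1, Il6st, Dennd2d, Mrps6, Nfatc1, Itm2a, Tnfsf8 and Rilpl2. Ramp1, a partner chain of the CGRP receptor, reached 73.3 CPM (70.3 to 76.3) in the Izumo1r-rich cells, against 14.9 CPM (12.3 to 18.0) in the comparison cells, a log2 ratio of 2.22. Ephx1, a microsomal epoxide hydrolase, reached 65.2 CPM (62.4 to 68.1) in Izumo1r-rich cells against 16.6 CPM (13.8 to 19.8) in comparison cells. Rgs10, which shortens G protein signals, reached 602 CPM (593 to 610) in Izumo1r-rich cells against 231 CPM (220 to 243) in comparison cells and had a UMI in 95.7% of the Izumo1r-rich cells and 72.0% of the comparison cells. Tbc1d4, a Rab GTPase-activating protein of glucose transporter traffic, reached 170 CPM in Izumo1r-rich cells against 67.9 CPM in comparison cells.

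The 15 lowest ratios belonged to Ccr2, Lgals3, Ifitm3, Cxcr6, Ly6c2, Gzmb, S100a4, Nkg7, Gna15, Il18r1, Plac8, Ctsw, Myo1f, Lgals1 and Glipr2. Ccr2, a chemokine receptor for inflamed tissue, stood at 4.37 CPM (3.66 to 5.17) in the Izumo1r-rich cells, against 112 CPM (104 to 120) in the comparison cells, a log2 ratio of -4.40. S100a4, a calcium-binding protein of motile cells, stood at 154 CPM (149 to 158) in Izumo1r-rich cells against 1547 CPM (1519 to 1576) in comparison cells, and Gzmb, a granzyme, at 11.8 CPM (10.7 to 13.1) in Izumo1r-rich cells against 133 CPM (124 to 141) in comparison cells. Ccl4, a chemokine of activated T cells, had 0 UMIs in the Izumo1r-rich cells and 217 in the comparison cells, where 0.752% of cells held them all, at least 309-fold lower against a floor of 3 UMIs over the group. Of 13 measured Th1 genes, 11 were lower by 1.5-fold and 1, Tnf, higher (23.1 CPM in Izumo1r-rich cells against 8.64 CPM in comparison cells), with a median log2 ratio of -1.49, and of 7 cytotoxic genes 6 were lower and 0 higher, with a median of -2.66. The rule removed Ccl5-positive cells from the members alone, and 290 of the 931 comparison cells had Ccl5. Against the 641 without it, the medians were -0.95 for Th1 and -1.69 for cytotoxic genes, and 211 genes were lower in place of 364.

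**Figure D2:**
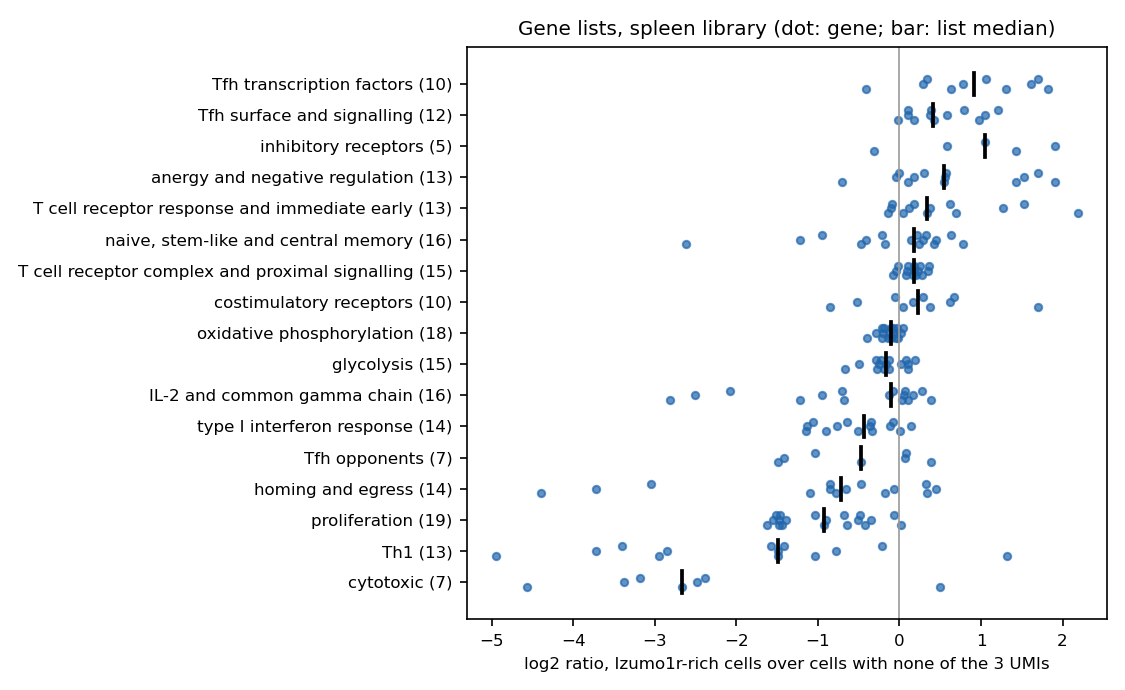
Log2 ratios of Izumo1r-rich over comparison spleen cells for the measured genes of each list, 1 point a gene, with the list's median as a bar and the number of measured genes in brackets. Tfh transcription factors (median 0.92) and inhibitory receptors (median 1.04) lay above the median of all measured genes (-0.04), and Th1 (median -1.49) and cytotoxic genes (median -2.66) below it.

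Receptor-stimulated and inhibitory genes were higher in part. Of 13 measured genes of the T cell receptor response, 5 were at least 1.5-fold higher and 0 lower, with a median log2 ratio of 0.33; against comparison cells without Ccl5, 3 were higher, with a median of 0.34. Nr4a1, an immediate early factor that tracks receptor signals, reached 22.9 CPM (21.3 to 24.7) in the Izumo1r-rich cells, against 4.25 CPM (2.89 to 6.03) in the comparison cells, and Egr1, another, 69.6 CPM (66.7 to 72.6) in Izumo1r-rich cells against 28.2 CPM (24.5 to 32.4) in comparison cells. Of 13 measured genes of anergy and negative regulation, 4 were higher and 1, Socs3, lower, with a median of 0.55, and 7 were higher and 1 lower against comparison cells without Ccl5. Higher against all comparison cells were Nrn1, Egr2, Lag3 and Tnfrsf9; Egr2, a factor of T cell anergy, reached 18.9 CPM in Izumo1r-rich cells against 5.89 CPM in comparison cells, and Nt5e, the anergy marker CD73, 12.7 CPM in Izumo1r-rich cells against 8.22 CPM in comparison cells. Of 5 measured inhibitory receptors, Pdcd1, Lag3 and Cd160 were higher and 0 lower. Lag3, which binds class II molecules, reached 46.6 CPM (44.2 to 49.0) in Izumo1r-rich cells against 16.6 CPM (13.8 to 19.8) in comparison cells, and Cd160 17.6 CPM in Izumo1r-rich cells against 3.98 CPM in comparison cells. Genes of the receptor complex and its proximal kinases had a median of 0.17, with 0 of 15 past 1.5-fold in either direction. Foxp3, the defining factor of regulatory T cells, had 12 UMIs in the Izumo1r-rich cells (0.385 CPM) and 5 in the comparison cells (0.685 CPM).

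Some proliferation genes and some genes of interferon and IL-2 signalling were lower. Of 19 measured proliferation genes 13 were at least 1.5-fold lower and 0 higher, with a median log2 ratio of -0.92, but against comparison cells without Ccl5 only 3 of the 19 were lower, with a median of -0.26. Mki67, a marker of dividing cells, stood at 20.2 CPM (18.7 to 21.8) in the Izumo1r-rich cells, against 54.7 CPM (49.5 to 60.3) in the comparison cells. After thinning, 2.40% (1.92 to 2.95) of the Izumo1r-rich cells and 6.75% (5.21 to 8.57) of the comparison cells had at least 2 UMIs of 10 cycling genes. Against comparison cells without Ccl5, which had Mki67 at 28.1 CPM, its log2 ratio was -0.46 and did not reach 1.5-fold. Of 14 interferon-response genes 6 were lower, with a median of -0.43; Ifit3 stood at 17.7 CPM in Izumo1r-rich cells against 39.9 CPM in comparison cells. Of 16 genes of IL-2 and the common gamma chain 7 were lower, among them Il7r, the IL-7 receptor, at 105 CPM in Izumo1r-rich cells against 247 CPM in comparison cells, and Cish, a feedback inhibitor, at 1.93 CPM in Izumo1r-rich cells against 15.6 CPM in comparison cells. The lists of naive and central memory genes (median 0.18), glycolysis (-0.16) and oxidative phosphorylation (-0.10) moved little; the naive list turned to -0.09 against comparison cells without Ccl5, and the oxidative list came to 0.00 with other totals. Ldha, the enzyme deleted elsewhere in the study, stood at 470 CPM (462 to 477) in Izumo1r-rich cells against 511 CPM (495 to 528) in comparison cells.

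Among Ccl5-negative spleen cells, the levels of some genes followed the rule's sum and those of others did not. The steps were 0, 1, 2, 3, 4 to 5, 6 to 9 and 10 or more UMIs, which held 641, 713, 698, 566, 922, 1152 and 917 cells. Id3 stood at 226, 309, 349, 404, 485, 541 and 591 CPM from the lowest step to the highest. S100a4 stood at 1108, 593, 385, 257, 196, 147 and 74.8 CPM over the same steps. Each step of Id3 was above the one before it, and each step of S100a4 below. Bcl6 stayed between 3.90 and 6.34 CPM up to a sum of 3, then stood at 10.5, 15.8 and 20.9 CPM, and Il21 ended at 16.9 CPM (14.3 to 19.8). Klf2 stayed between 1014 and 1076 CPM up to a sum of 3 and then stood at 915, 787 and 557 CPM. Bcl6 and Klf2 thus differed mainly among cells past the rule's threshold, and Id3 and S100a4 over all steps. Other Tfh genes did not follow the sum: Cd40lg stayed between 44.2 and 50.9 CPM and Il6ra between 78.1 and 89.8 CPM. Maf stood at 142 CPM at a sum of 0, 118 CPM at 3 and 156 CPM at 10 or more. Median depth also grew over the steps, at 7365 UMIs in the lowest and 8929 UMIs in the highest, and its part was not tested.

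**Figure D3:**
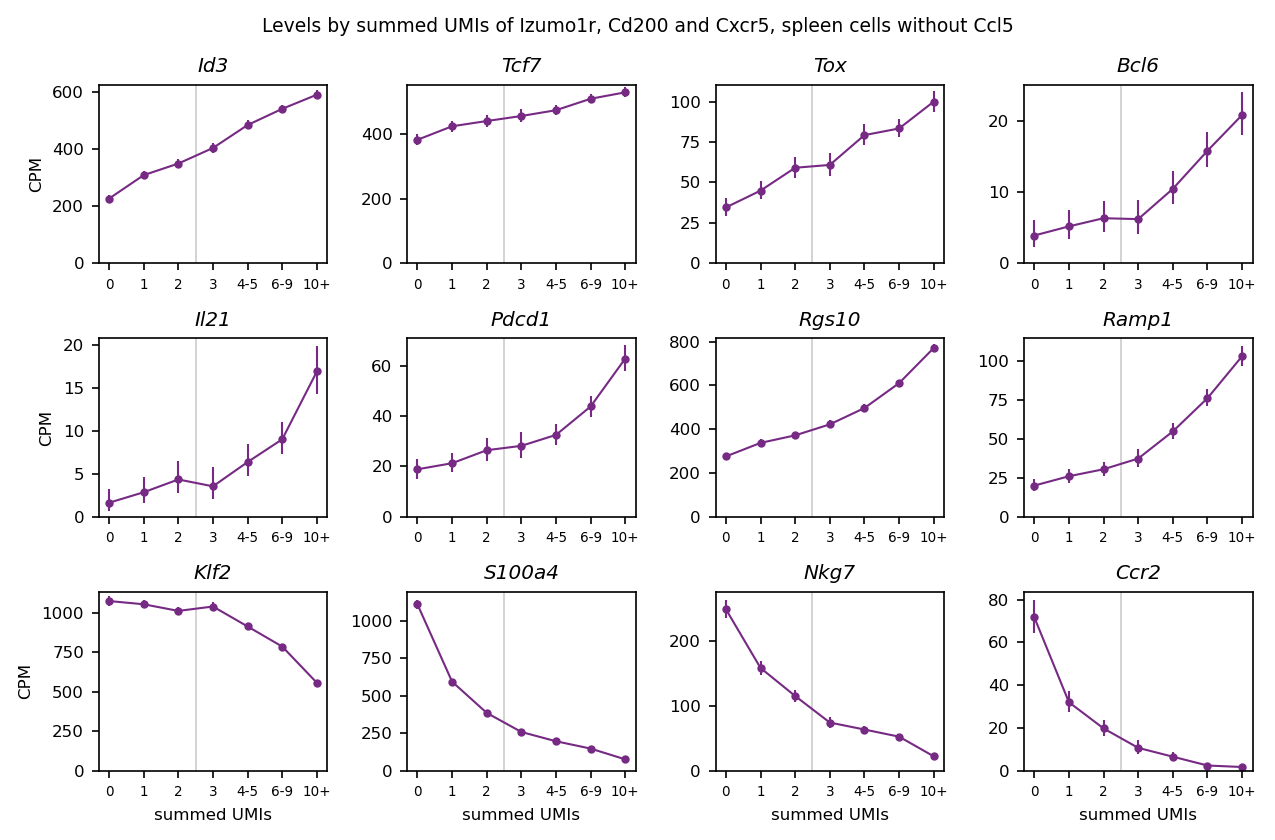
Level in CPM (y axis, from 0) by the summed UMIs of Izumo1r, Cd200 and Cxcr5 (x axis) in Ccl5-negative spleen cells, 1 panel a gene, with exact Poisson 95% intervals; cells right of the grey line, with a sum of 3 or more, are the Izumo1r-rich cells. Id3 (226 to 591 CPM) was higher and S100a4 (1108 to 74.8 CPM) lower at each successive step, while Bcl6 was higher from a sum of 4 on.

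Within the Izumo1r-rich cells, several Tfh genes, such as Bcl6, Il21 and Pdcd1, were higher in those with Cxcr5. The members divided into 1098 cells with a Cxcr5 UMI (30.9%), 300 of them with 2 or more, 1063 with Cd200 and no Cxcr5 (29.9%) and 1396 with Izumo1r alone (39.2%). Bcl6 stood at 22.7 CPM (19.8 to 25.8) in the cells with Cxcr5, 36.5 CPM (29.9 to 44.1) in those with 2 or more of its UMIs, 12.9 CPM (10.7 to 15.5) in those with Cd200 and 8.83 CPM (7.20 to 10.7) in those with Izumo1r alone. Il21 stood at 18.9 CPM (16.3 to 21.7), 31.4 CPM (25.3 to 38.5), 5.99 CPM (4.52 to 7.77) and 5.02 CPM (3.81 to 6.49) in the same order, so the intervals of the cells with Cxcr5 lay apart from the others, and those with Cd200 and with Izumo1r alone overlapped. Pdcd1 was at 64.0 CPM with Cxcr5, 98.9 CPM with 2 or more of its UMIs, 40.3 CPM with Cd200 and 30.0 CPM with Izumo1r alone. Maf, which was lower in the Izumo1r-rich cells as a whole, stood at 228 CPM (211 to 245) in those with 2 or more Cxcr5 UMIs and 114 CPM (108 to 121) in those with Izumo1r alone. Other members of the programme differed less between these cells: Tcf7 ran from 482 to 524 CPM and Id3 from 484 to 652 CPM. Klf2 was lowest with 2 or more Cxcr5 UMIs, at 608 CPM (580 to 636), and highest with Izumo1r alone, at 876 CPM (859 to 893). Median depth was 8578.5 UMIs with Cxcr5 and 7961 UMIs with Izumo1r alone, and the part of depth was not tested.

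**Figure D4:**
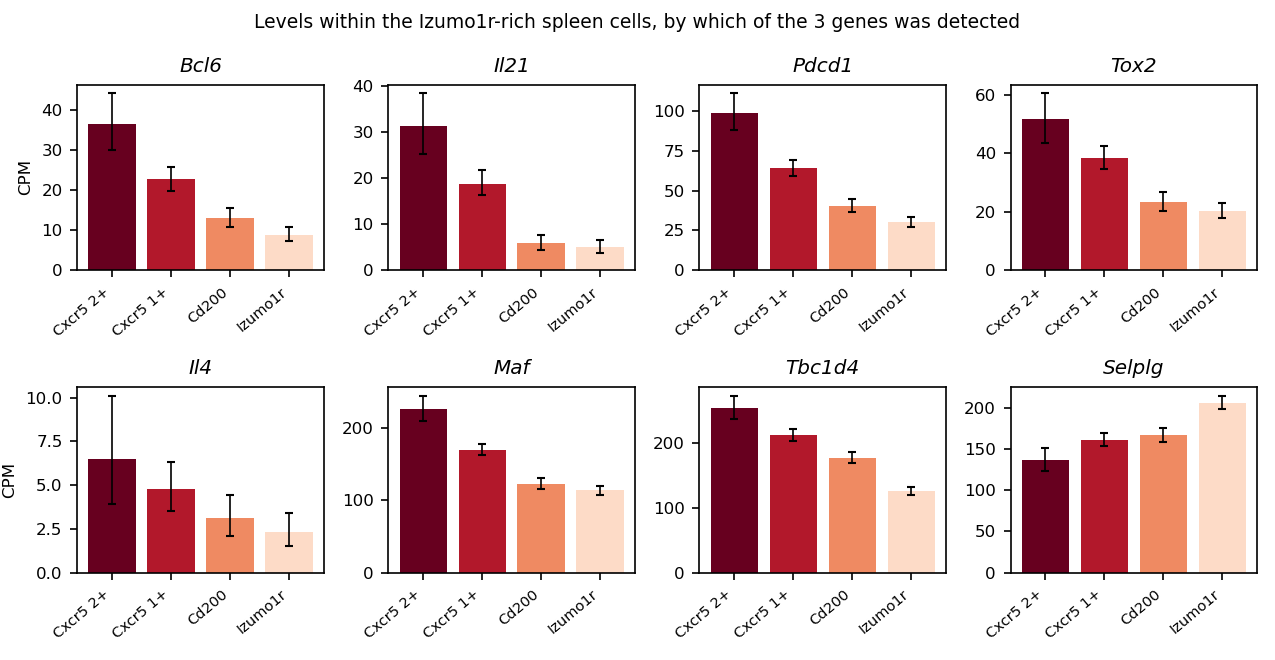
Levels in CPM of Tfh genes in Izumo1r-rich spleen cells grouped by which of the rule's genes they had, with exact Poisson 95% intervals; cells with 2 or more Cxcr5 UMIs are also counted among those with Cxcr5. Bcl6 ran from 8.83 CPM with Izumo1r alone to 36.5 CPM with 2 or more Cxcr5 UMIs, and Il21 from 5.02 to 31.4 CPM.

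Per cell, the genes met more often than their separate shares would give. Over 6527 spleen cells thinned to 3000 UMIs, Bcl6 was found in 7.61% of cells with Cxcr5 and 2.53% of cells without it, and Il21 in 5.23% and 1.27%. Cells with both Cxcr5 and Il21 were 33, which is 3.16 times the number independence would give, and Cxcr5 with Bcl6 came to 2.52 times. Of the rule's own genes, Izumo1r with Cd200 came to 1.20 times, Izumo1r with Cxcr5 to 1.12 times and Cd200 with Cxcr5 to 1.32 times. This ratio has a lower ceiling where a gene is common, so the pairs are not ranked by it. Cd200 was found in 16.7% of cells with Izumo1r and 9.70% of cells without it, and Cxcr5 in 10.8% and 7.90%. Izumo1r met Ccl5 at 0.55 times. The 313 spleen cells with a sum of 3 or more and Ccl5, left out by the rule, had Id3 at 283 CPM, Bcl6 at 14.9 CPM, S100a4 at 840 CPM and Nkg7 at 399 CPM. They had Il21 at 9.22 CPM, Pdcd1 at 45.2 CPM, Tox2 at 29.1 CPM, Tox at 70.8 CPM and Maf at 204 CPM. In the Izumo1r-rich cells these stood at 9.86, 44.3, 27.1, 83.8 and 135 CPM, so several Tfh genes were at like levels in both.

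The same rule in the heart allograft library found 779 of 3990 cells (19.5%, 18.3 to 20.8), and 25.3% of thinned spleen cells passed it against 5.18% of thinned heart cells. The rule also asks for no Ccl5 UMI, which 85.6% of spleen cells and 57.2% of heart cells met. Cells with a sum of at least 3 and Ccl5 were a further 16.2% of heart cells and 4.77% of spleen cells. The shares that passed therefore do not compare the tissues by the 3 genes alone. In those 779 heart cells, Izumo1r gave 91.1% of the rule's UMIs and Cxcr5 was found in 7.19% (5.48 to 9.23). Its level there was 7.28 CPM, against 7.47 CPM in near-empty heart barcodes, and the part of free RNA in that share was not tested. The contrast with the 1023 heart cells that had none of the 3 genes called 188 of 6353 measured genes at least 1.5-fold higher (2.96%) and 67 lower (1.05%). The median log2 ratio of the Tfh genes was 0.63 in the spleen and 0.24 in the heart, where 4 of 22 measured were higher and 1 lower. Across 5945 genes measured in both tissues, Pearson's r of the ratios was 0.19, a description across genes, which are not independent replicates. Some genes of the spleen pattern had high ratios in the heart as well, such as Tox2 (1.56), Tnfsf8 (1.16) and Ramp1 (1.07), and, under the 10 CPM floor, Il21 (7.49 CPM in the Izumo1r-rich heart cells and 1.48 CPM in the heart comparison cells). Rgs10 (-0.04) and Rnf19a (-0.01) did not, and Id3 was under the floor there, at 7.17 CPM in the Izumo1r-rich heart cells and 5.57 CPM in the heart comparison cells. In the main setting, Pdcd1 and proliferation genes went the other way: Pdcd1 stood at 192 CPM in the Izumo1r-rich heart cells and 299 CPM in the heart comparison cells, and 18 of 20 proliferation genes were at least 1.5-fold higher. Of that list, only Mki67 was run again in the heart with other settings. The heart ratio of Mki67, 0.67, came to 0.54 against heart comparison cells without Ccl5 and turned to -0.31 when the heart comparison cells were reweighted to the depth of the Izumo1r-rich heart cells. Cycling cells made up 21.7% of the thinned Izumo1r-rich heart cells and 12.1% of the thinned heart comparison cells. Median depth was 9181 UMIs in the Izumo1r-rich heart cells and 7462 UMIs in the heart comparison cells. Cells over 3 times the median UMI count of the heart library were 7.45% and 1.27% of these groups. Only Mki67 and Pdcd1 were run again in the heart with reweighted depth, and the part of depth in the other heart values was not tested.

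**Figure D5:**
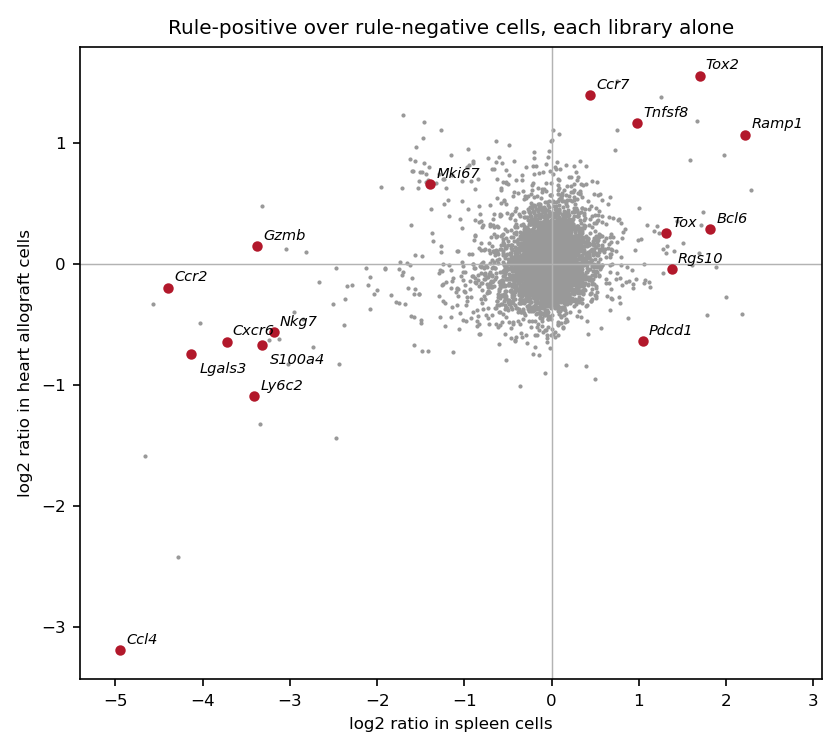
Log2 ratio of Izumo1r-rich over comparison cells in spleen (x axis) and in heart allograft (y axis), 1 point a gene measured in both, with named genes marked. Points scatter widely (Pearson's r 0.19); Tox2 (1.70 in spleen and 1.56 in heart) and Ramp1 (2.22 and 1.07) lie high on both axes, Rgs10 (1.38 and -0.04) on the spleen axis alone, and Pdcd1 (1.04 and -0.63) on opposite sides.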

How the data were processed

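Single-cell RNA of sorted TEa cells was counted from 10x Genomics 3′ libraries, 1 per group (heart and spleen of wild-type cells, spleen of Ldha-/- cells). The authors deposited raw counts of UMIs for each gene and barcode, written by Cell Ranger 3.0.2 (both wild-type matrices) and 7.0.1 (Ldha-/-), per the file headers. Per the submitters' processing notes the genome was mm10 and the tools Seurat 4.0.0 and Cell Ranger 7.0.0. The wild-type matrices hold all barcodes, 836795 with a UMI in spleen, and 60698669 UMIs in spleen and 46554861 in heart.

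Quality-filtered cells had at least 1000 UMIs, 500 genes, at most 10% mitochondrial UMIs, at least 6 UMIs of Cd3d, Cd3e, Cd3g, Trac, Trbc1 and Trbc2 and at most 1 of Lyz2. These filters took the 6860 spleen barcodes past the first 2 minimums to 6556. No doublet caller was run; leaving out cells over 3 times the median UMI count was an alternative. Counts were summed per group of cells and scaled to CPM (Python 3.11.15, numpy 2.4.6, scipy 1.17.1, pandas 2.3.3). The log2 ratio used a pseudocount of 1 CPM and a floor of 10 CPM, and the procedure was tested on simulated data. With 1 library a group no test was possible, and cells are not replicates. Intervals are exact (Poisson for counts, Clopper-Pearson for shares), at 95%, and the UMI floor is 3 counts. Gene positions and promoters come from GENCODE M21 and RefSeq on GRCm38, the assembly that mm10 names.

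Named genes were 35 chosen Tfh, opponent and marker genes, the 15 highest and 15 lowest ratios at 50 CPM or more (leaving out the rule's own genes, unnamed and sex-linked genes, receptor segments, and haemoglobin, ribosomal protein and mitochondrial genes) and up to 4 members of each of 35 lists with the largest ratios. Sostdc1 and other list members outside this rule were named after their values were seen. The members and lists were chosen with earlier results of these data known. Alternatives changed the pseudocount, floor, fold, totals, depth, thinning, Ccl5, the sum, cycling cells and mitochondrial limit.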

Additional observations from a re-analysis of the deposited data

Results flagged for a closer look

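A pair of the always-named genes had log2 ratios in the heart that pointed opposite to those in the spleen, each past 1.5-fold; the difference between tissues was not tested, since each tissue is 1 library. Pdcd1 had a log2 ratio of 1.04 in the spleen and -0.63 in the heart, with 192 CPM in Izumo1r-rich heart cells and 299 CPM in heart comparison cells. Under the other settings run, its heart ratio stayed between -0.78 and -0.48. Mki67 had a log2 ratio of -1.39 in the spleen and 0.67 in the heart, with 119 CPM in Izumo1r-rich heart cells and 74.7 CPM in heart comparison cells. Its heart ratio came to -0.31 when the heart comparison cells were reweighted to the depth of the Izumo1r-rich cells, so its direction in the heart depended on that setting.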

How the results depend on the processing

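No paired analysis was possible because each group is 1 library. The median log2 ratio of the Tfh genes (0.63) stayed above 0 under every alternative run: 0.42 with a floor of 50 CPM, 0.78 with a floor of 1 CPM, 0.90, over the genes then measured, with totals without mitochondrial, ribosomal protein and Malat1 counts, 0.44 with comparison cells without Ccl5 and 0.51 without cycling cells. It was 0.75 with comparison cells reweighted to the depth of the Izumo1r-rich cells, and 0.68 with thinning to 3000 UMIs. Reweighted depth gave 204 genes higher and 422 lower. Counts of genes moved with the thresholds: 48 higher and 121 lower with the floor of 50 CPM, 455 and 764 with that of 1 CPM, and 57 and 160 at 2-fold. The other totals gave 384 higher and 380 lower (50.3% of calls higher, against 31.3%) and moved the median of all genes by 0.11, the comparison without Ccl5 gave 146 higher and 211 lower (40.9%), and thinning to 3000 UMIs gave 251 higher. Izumo1r-rich cells were 64.9% of spleen cells at a sum of at least 2, 45.6% at 4, 59.0% with Ccl5 allowed, 55.8% without cycling cells and 51.4% at up to 5% mitochondrial UMIs. Of 2091 values of single genes, 1804 moved by no more than the distance from the middle of their counting interval to its end, and 285 by more. Another 2, of genes past 1.5-fold in the main setting, changed sign. Alternatives chosen after seeing the data left out 2 haemoglobin-rich barcodes, which turned Hbb-bs to -0.11 and Hba-a2 to -0.026, and recomputed the heart ratio of Mki67, which turned to -0.31 with reweighted depth and -0.19 without cycling cells, which are defined in part by Mki67 itself. Genes near 10 CPM rest on few UMIs, chiefly in the smaller comparison group. Differences between libraries have no replicate check.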
